A study of Sus scrofa with 6 samples.

Results

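The autophagy machinery and the lysosomal proteins of immature pig Sertoli cells were followed through 33 genes, named from their known roles and looked up in the deposited table by pig Ensembl identifier. All 33 had a row among the 20731 rows of the table. They comprise 21 genes that build or load the autophagosome, 11 genes of the lysosomal membrane and its hydrolases, and the transcription factor gene TFEB. Total RNA of cultured immature testicular Sertoli cells was sequenced in 6 libraries, 3 labelled Control and 3 labelled MT. MT cells had received melatonin at 10 nM for 36 h. For Control cells no agent, solvent or time is stated, and nothing is said of the breed, age or genotype of the pigs. Whether the replicates of a group are separate cultures or animals is not stated, so each p-value rests on a spread between libraries that may be technical.

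In macroautophagy, cells enclose cytoplasm in a double membrane, the autophagosome, which then fuses with lysosomes so that hydrolases can break down its contents. The ULK1 kinase complex starts the process, a lipid kinase complex marks the membrane, lipid carriers enlarge it, and a conjugation system couples small ATG8 proteins to its lipids, where receptors bring cargo to them. TFEB activates many lysosomal and autophagy genes when it enters the nucleus. Sertoli cells are professional phagocytes that engulf dying germ cells and residual bodies, and they digest these in lysosomes.

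Values are FPKM, read numbers scaled by gene length and library total, from libraries of 19579279 to 21500665 reads. Library Control 3 stood apart from the other 5. Across tested genes its correlation was 0.938 and 0.939 with the other Control libraries and 0.952 to 0.975 with the MT libraries, while Control 1 and Control 2 reached 0.993 with each other. What sets it apart, its labelling and RNA quality included, was not tested. Results are therefore given with and without it. Of 15 Sertoli cell markers 11 had a row, and they summed to 5569 to 6606 FPKM in Control and 6580 to 6948 in MT, most of it VIM and CLU. VIM, CLU, KRT18, AMH and WT1 were present in every library and SOX9 was low, at 1.61 to 2.40 FPKM. INHA, DHH, DMRT1, NR5A1 and TF were near or at 0 (at most 0.48 FPKM). Macrophages are rich in lysosomes, and 5 of the 6 macrophage markers with a row had a mean under 1 FPKM. The list summed to 6.67 to 8.59 FPKM in Control and 7.43 to 8.16 in MT, nearly all of it CD14. Germ cell markers (5 of 8 with a row) summed to 1.57 to 1.71 FPKM in Control and 1.84 to 1.92 in MT. Of those 5, 4 had a mean under 1 FPKM. Peritubular myoid markers (5 of 5) summed to 160 to 265 and 162 to 194, mostly TAGLN. Of these, 3 had a mean under 1 FPKM, with ACTA2 at most 0.21 and MYH11 at most 0.04. Leydig cell markers (3 of 6) summed to 3.85 to 4.35 FPKM in Control and 3.74 to 4.87 in MT, nearly all STAR and CYP11A1. Endothelial markers (2 of 5) summed to 0.162 to 0.309 and 0.152 to 0.322. The part of these shifts in the results was not tested. In bulk RNA, fewer cells of a type and less RNA per cell cannot be told apart.

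Over all 6 libraries, 0 of the 32 tested members passed an adjusted p of 0.05, and neither did any of the 10950 genes tested (0%, limma on log2(FPKM + 1)). The member GABARAP lay under the filter of a mean of 1 FPKM. At an unadjusted p under 0.05 stood 3 members, all higher in MT, namely WIPI1, GABARAPL1 and HEXA, where 517 of all tested genes did (4.72%), and 255 of them were higher in MT (2.33%). With voom weights on the recovered reads limma also called 0 genes. MT values lay above every Control value in 4 members (WIPI1, GABARAPL1, CTSB and HEXA) and below every Control value in 0, against 6.24% and 4.99% of all tested genes. Log2 differences were above 0 in 24 of the 32 members, against 56% of all tested genes, and the median was 0.08 against 0.02.

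Without Control 3, HEXA, CTSD, GAA and LAMP1 rose and OPTN fell, so that 4 lysosomal genes passed upward and 1 cargo receptor gene passed downward. Over all tested genes 469 rose (4.28%) and 725 fell (6.62%) in those 5 libraries. In the same 5 libraries MT values lay above both Control values in 12 members and below both in 5, against 25.9% and 30.3% of all tested genes. The fit without Control 3 rests on 2 Control libraries against 3 MT libraries. Control 3 was singled out because it stood apart, and the Control libraries that remain correlated at 0.993. The spread behind these p-values is therefore narrower. In that fit 36.2% of all tested genes had an unadjusted limma p under 0.05, against 4.72% over 6 libraries. The interval plot sets both fits side by side for each gene.

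**Figure D1:**
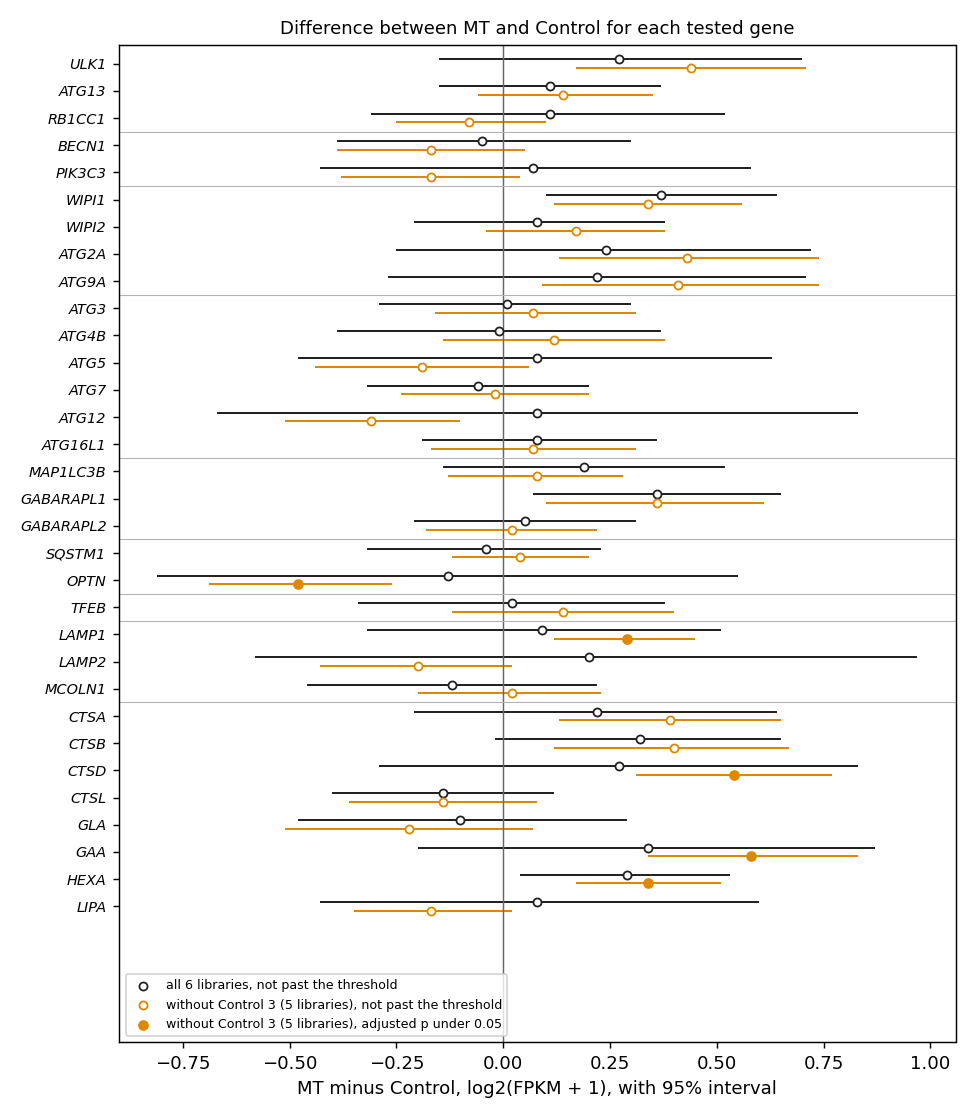
Difference MT minus Control on the log2(FPKM + 1) scale (x axis) for the 32 tested genes, ordered by role, with 95% intervals from limma over all 6 libraries (black) and without Control 3 (orange); filled points passed an adjusted p of 0.05. No black point is filled, and the 5 filled orange points are OPTN on the left and LAMP1, CTSD, GAA and HEXA on the right.

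The genes of the ULK1 complex did not pass in either fit. ULK1, the kinase that starts autophagosome formation (chromosome 14, 23423693 to 23448130, Sscrofa11.1), stood at 14.7, 13.2 and 20.1 FPKM in Control 1 to 3 and at 19.5, 16.8 and 21.8 in MT 1 to 3. Control 3 lay among the MT values, while Control 1 and Control 2 lay below all of them. The log2 difference was 0.27 (SE 0.18, adjusted p 1) over 6 libraries and 0.44 (SE 0.11, adjusted p 0.051) without Control 3. ATG13, the adaptor that links ULK1 to the rest of the complex, ranged only from 10.8 to 13.3 FPKM over all libraries. RB1CC1, the large scaffold also called FIP200, was at 10.7 to 11.7 FPKM in MT, at 11.96 and 11.5 in Control 1 and Control 2, and at 7.62 in Control 3. Its log2 difference changed sign, from 0.11 with all libraries to -0.08 without Control 3.

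BECN1 and PIK3C3 encode the regulatory and the catalytic part of the lipid kinase complex that makes phosphatidylinositol 3-phosphate on the growing membrane. BECN1 (chromosome 12, 20041914 to 20054249) was the more abundant per length, at 46.5, 40.7 and 33.5 FPKM in the Control libraries and 35.9, 38.0 and 42.2 in those of MT. The groups overlapped over most of their range, and the difference of -0.05 had an interval of -0.39 to 0.30. PIK3C3 stood at 3.99, 3.54 and 1.87 FPKM in the Control libraries and 3.06, 3.38 and 3.27 in those of MT. All MT values lay between Control 3 below and the other Control libraries above. Neither gene passed in either fit.

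Among the genes for recruitment and growth of the membrane, WIPI1 separated the groups with every library included. WIPI1, which binds the lipid made by PIK3C3 (ENSSSCG00000017260, chromosome 12, 11715332 to 11752009), stood at 5.18, 4.30 and 4.43 FPKM in the Control libraries and 5.99, 6.34 and 6.46 in those of MT. Control 3 sat inside its own group here. The log2 difference was 0.37 (SE 0.11, interval 0.10 to 0.64), with an unadjusted p of 0.014 and an adjusted p of 0.82, and 0.34 without Control 3 (adjusted p 0.056). Leaving out any library kept it at 0.33 to 0.44. Its relative WIPI2, which recruits the conjugation machinery, was at 8.89 to 11.3 FPKM in Control and 9.79 to 11.5 in MT, with a difference of 0.08.

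ATG2A, which moves lipids into the membrane, and ATG9A, the membrane protein that redistributes them, showed the same arrangement of libraries as ULK1 or nearly so. ATG2A was at 6.96, 6.01 and 10.3 FPKM in the Control libraries and 9.89, 7.61 and 9.98 in those of MT. ATG9A was at 10.3, 9.31 and 15.1 in the Control libraries and 13.9, 10.99 and 15.5 in those of MT. In both genes Control 1 and Control 2 were lowest, MT 2 came next, and the remaining libraries were close together. Without Control 3 the log2 differences were 0.43 for ATG2A and 0.41 for ATG9A (adjusted p 0.063 and 0.082), against 0.24 and 0.22 with it. None of the 4 genes of this role passed. All 4 were higher in MT in both fits. Of all tested genes 56% were higher over 6 libraries, and 5406 of 10950 without Control 3.

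Genes of the conjugation system differed little between the groups, with a median of 0.04 over 6 members. ATG7 and ATG3, the enzymes that activate and transfer ATG8 proteins, were at 2.07 to 2.5 and 19.9 to 24.8 FPKM over all libraries, with differences of -0.06 (interval -0.32 to 0.20) and 0.01 (-0.29 to 0.30). ATG4B, the protease that trims ATG8 proteins, had a difference of -0.01 and ATG16L1, which places the conjugation complex on the membrane, 0.08. ATG12 and ATG5, whose products are joined to each other, varied most. ATG12 (chromosome 2, 119948443 to 119965702) stood at 9.65, 9.63 and 3.76 FPKM in the Control libraries and 7.22, 8.39 and 7.28 in those of MT. The MT libraries lay below Control 1 and Control 2 and well above Control 3. Its difference was 0.08 with an interval of -0.67 to 0.83, and -0.31 (SE 0.09, adjusted p 0.059) without Control 3. ATG5 behaved alike in Control 3, at 1.42 FPKM against 2.41 to 3.42 in the other libraries, and its difference went from 0.08 to -0.19.

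The ATG8 proteins are the small ubiquitin-like tags of the autophagosome, and GABARAPL1 was the most abundant per length of the 3 that were tested. GABARAPL1 (ENSSSCG00000000645, chromosome 5, 61758127 to 61767427) stood at 22.6, 19.4 and 20.7 FPKM in the Control libraries and 27.8, 24.04 and 29.7 in those of MT. Each MT library exceeded each Control library, and Control 3 lay between its group mates. The difference was 0.36 (SE 0.12, interval 0.07 to 0.65), with an unadjusted p of 0.021 and an adjusted p of 0.90. It was 0.36 without Control 3 as well (adjusted p 0.069), and 0.30 to 0.44 with any library left out. MAP1LC3B, the gene of the widely used autophagy marker LC3B, was at 7.80, 6.78 and 5.51 FPKM in the Control libraries and 8.02, 7.88 and 7.32 in those of MT. Those ranges overlapped, and the difference was 0.19 (interval -0.14 to 0.52). GABARAPL2 lay between 6.60 and 7.79 FPKM in all libraries, with a difference of 0.05. GABARAP, a gene known to be broadly expressed, was listed at 0 in 5 libraries and at 0.11 FPKM in Control 3. Whether its row was annotated or counted correctly was not tested, so these values are not read as its level. Related ATG8 genes can share reads, and the treatment of such reads is unknown here.

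**Figure D2:**
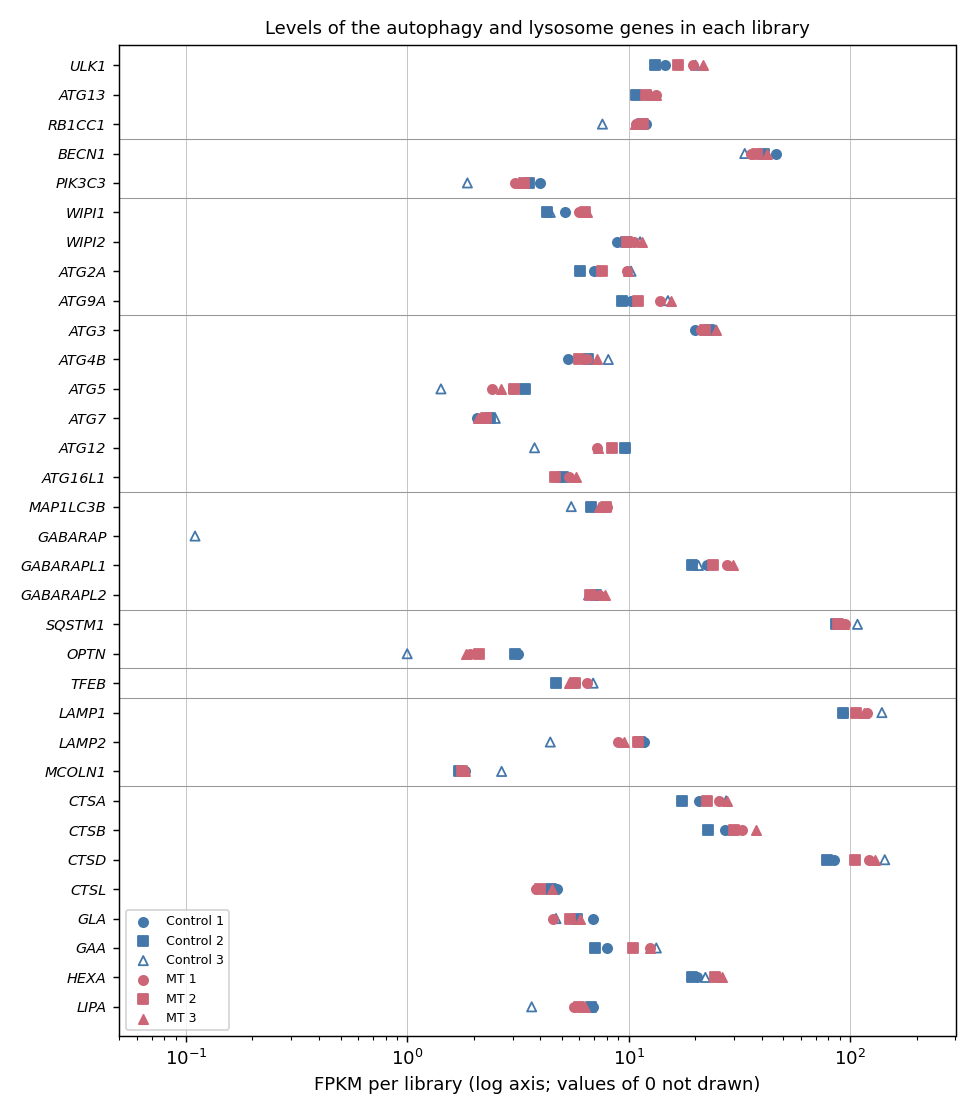
FPKM of each of the 33 genes (log x axis) in the 6 libraries, with genes grouped by role between the grey lines; blue marks are Control, red marks are MT, and the open triangle is Control 3. SQSTM1, LAMP1 and CTSD are the most abundant, and the open triangle lies far left of all other marks for ATG12, OPTN and LAMP2.

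Both cargo receptor genes had a difference below 0 with all libraries, and only OPTN fell without Control 3. SQSTM1 (p62), which binds ubiquitin and ATG8 proteins and is itself degraded by autophagy, was among the most abundant members, at 92.9, 86.8 and 108.2 FPKM in the Control libraries and 94.8, 88.8 and 94.3 in those of MT. The MT values fell inside the Control range, and the difference of -0.04 had an interval of -0.32 to 0.23. OPTN, a receptor for damaged mitochondria and bacteria (chromosome 10, 48532029 to 48582952), stood at 3.18, 3.07 and 1.0 FPKM in the Control libraries and 1.93, 2.12 and 1.84 in those of MT. These rest on 99 reads in Control 3 and 180 to 294 reads in the other libraries. MT libraries lay between Control 3 and the other Control libraries, so the groups overlapped. The difference was -0.13 (SE 0.29) over 6 libraries and -0.48 (SE 0.09, adjusted p 0.033) without Control 3. It was 0.05 without Control 1 and 0.03 without Control 2, so the sign of OPTN depends on which Control libraries are used.

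TFEB itself (chromosome 7, 36870240 to 36920887) stood at 5.73, 4.71 and 6.92 FPKM in the Control libraries and 6.48, 5.72 and 5.36 in those of MT. The groups overlapped fully, and the difference was 0.02 (interval -0.34 to 0.38) over 6 libraries and 0.14 (-0.12 to 0.40) without Control 3. The level of TFEB mRNA does not report where the protein is located.

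Of the lysosomal membrane genes, LAMP1 and LAMP2 encode the major glycoproteins of that membrane, and they moved apart from library to library. LAMP1 (chromosome 11, 78600818 to 78617587) stood at 92.9, 93.1 and 139.5 FPKM in the Control libraries and 118.9, 106.8 and 115.6 in those of MT. LAMP2 (chromosome X, 98586718 to 98623939) stood at 11.7, 11.2 and 4.43 FPKM in the Control libraries and 9.0, 11.04 and 9.53 in those of MT. Control 3 was the highest library for LAMP1 and the lowest for LAMP2, and the MT libraries lay between it and the other Control libraries for both genes. LAMP1 had a difference of 0.09 (SE 0.18, adjusted p 1) over all libraries and rose by 0.29 (SE 0.07, adjusted p 0.047) without Control 3, while it was 0.00 without Control 1 and also without Control 2. For LAMP2 the difference went from 0.20 (SE 0.33) to -0.20 (SE 0.10, adjusted p 0.17). MCOLN1, a calcium channel of the lysosome that acts on TFEB, was at 1.83, 1.71 and 2.67 FPKM in the Control libraries and 1.81, 1.76 and 1.82 in those of MT, and passed in neither fit.

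Of the 8 hydrolase genes, 6 were higher in MT over all libraries, against 56% of all tested genes, with a median of 0.24. Without Control 3, 3 of them rose, where 4.28% of all tested genes did. HEXA, a subunit of the enzyme that degrades GM2 ganglioside (ENSSSCG00000001927, chromosome 7, 60878531 to 60911537), stood at 20.3, 19.3 and 22.2 FPKM in the Control libraries and 24.9, 24.5 and 26.6 in those of MT. The groups did not overlap, and Control 3 was the Control library nearest to MT. The log2 difference was 0.29 (SE 0.10, unadjusted p 0.029, adjusted p 0.94) over 6 libraries and 0.34 (SE 0.07, adjusted p 0.037) without Control 3.

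CTSB, a cysteine protease (chromosome 14, 15014139 to 15035081), was at 27.2, 22.9 and 29.6 FPKM in the Control libraries and 32.5, 29.8 and 37.6 in those of MT. Its groups also did not overlap, though Control 3 and MT 2 were close. The difference was 0.32 (SE 0.14, unadjusted p 0.060), and 0.40 without Control 3 (adjusted p 0.064). CTSD, the main aspartic protease of lysosomes (chromosome 2, 1188548 to 1197642), was the most abundant hydrolase per length, at 84.8, 78.5 and 143.7 FPKM in the Control libraries and 121.9, 106.0 and 130.1 in those of MT. Control 3 exceeded all MT libraries and the other Control libraries lay below all of them. The difference was 0.27 (SE 0.24, adjusted p 1), and CTSD rose by 0.54 (SE 0.10, adjusted p 0.032) without Control 3. It was 0.16 without Control 1 and 0.11 without Control 2.

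GAA, which degrades glycogen in lysosomes (chromosome 12, 2315807 to 2339867), stood at 8.03, 7.08 and 13.4 FPKM in the Control libraries and 12.5, 10.5 and 12.5 in those of MT. It followed the pattern of CTSD across libraries. The difference was 0.34 (SE 0.22) with all libraries, and GAA rose by 0.58 (SE 0.10, adjusted p 0.030) without Control 3. Without Control 1 or Control 2 it was 0.25 or 0.17. CTSA, a serine carboxypeptidase that also protects other hydrolases, stood at 20.9, 17.5 and 27.6 FPKM in the Control libraries and 25.6, 22.7 and 27.9 in those of MT, and did not pass in either fit (adjusted p 1 and 0.060).

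The remaining 3 hydrolase genes had other patterns. LIPA, which frees cholesterol and fatty acids from lipids taken up into lysosomes, was at 6.93, 6.76 and 3.65 FPKM in the Control libraries and 5.67, 5.97 and 6.33 in those of MT. Its difference changed sign, from 0.08 to -0.17 without Control 3. The cysteine protease CTSL was at 4.46 to 4.75 FPKM in Control and 3.80 to 4.52 in MT, with a difference of -0.14 in both fits. GLA, the galactosidase that degrades globotriaosylceramide, had differences of -0.10 and -0.22. None of the 3 passed.

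**Figure D3:**
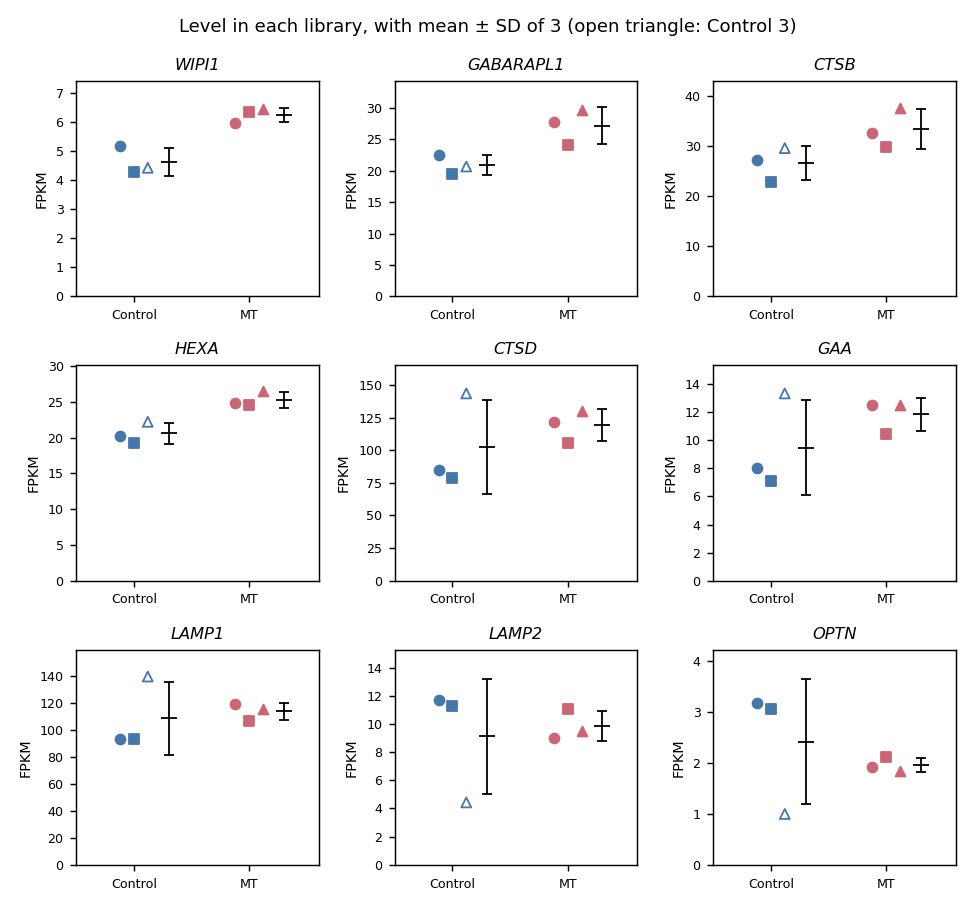
FPKM in each library (points, y axis from 0) with the mean ± SD of 3 libraries beside each group, for 9 genes; the open triangle is Control 3. In WIPI1, GABARAPL1, CTSB and HEXA all MT points lie above all Control points, while in CTSD, GAA, LAMP1, LAMP2 and OPTN Control 3 lies beyond the MT points on the far side from Control 1 and Control 2.

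Set against each other, the lysosomal genes had the larger median difference, 0.20 over 11 genes (8 higher and 3 lower). The autophagosome genes had 0.08 over 20 tested genes (15 higher and 5 lower). Of all tested genes 56% were higher. Without Control 3 the lysosomal and autophagosome medians were 0.29 and 0.07, with 4 lysosomal genes that rose and 1 autophagosome gene that fell. Of all tested genes 4.28% rose and 6.62% fell there. No test of the contrast between the 2 groups of genes was made, since their members were chosen with results known. With any library left out the lysosomal median was 0.11 to 0.29 and the autophagosome median 0.07 to 0.14. Relative to each gene's mean over the 6 libraries, the lysosomal median was -0.12, -0.23 and 0.07 in Control 1 to 3 and 0.11, -0.02 and 0.11 in MT 1 to 3. Control 3 thus lay above MT 2 and below MT 1 and MT 3 on that measure. The autophagosome medians were closer together, from -0.08 in Control 3 to 0.11 in MT 3.

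The position of Control 3 bore on the sign or the call of many members, of which 9 changed sign and 5 others passed once it was left out. It lay above both other Control libraries in 17 members and below both in 12, against 45.3% and 48.3% of all tested genes. Against the mean of Control 1 and Control 2, its log2 deviations were -1.20 for LAMP2, -1.16 for ATG12, -1.04 for OPTN, -0.80 for ATG5, -0.76 for LIPA and -0.73 for PIK3C3. On the other side stood CTSD (0.81), GAA (0.75), ATG2A (0.59), LAMP1 (0.58) and ATG9A (0.58). Deviations were within 0.11 of 0 for ATG13, WIPI1, ATG16L1, GABARAPL1, GABARAPL2 and CTSL. In ATG2A, LAMP1, CTSD and GAA all MT libraries lay above Control 1 and Control 2 and below Control 3, an order found in 14.1% of all tested genes. In PIK3C3, ATG12, OPTN, LAMP2 and LIPA they lay in the inverse order, as in 22.2% of all tested genes. In 8 of these 9 members (all but LIPA) MT 2 was the MT library nearest to Control 1 and Control 2, with 4 members in each order, as in 11.3% and 17.9% of all tested genes. The deviation of Control 3 had a Spearman correlation of -0.35 with gene length across the 32 members and -0.20 across all 10950 tested genes, where genes share the same libraries and are not independent.

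**Figure D4:**
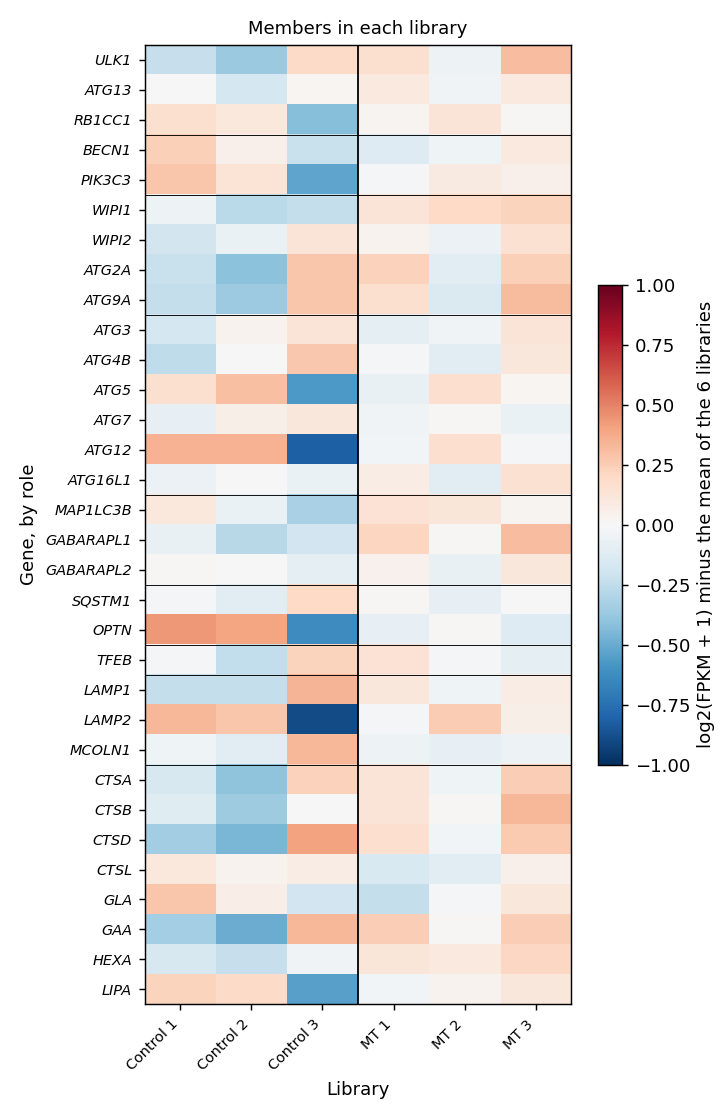
Each tested gene (rows, by role) in each library (columns) as log2(FPKM + 1) minus the mean of the 6 libraries; red is above the mean and blue below, on a scale from -1 to 1. Control 3 holds the deepest blue cells (LAMP2, ATG12, OPTN) and is red for CTSD, LAMP1 and GAA, where Control 1 and Control 2 are blue.

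Other genes of the pathway were taken from 7 further lists of 133 genes, of which 116 were tested. All had 0 genes past an adjusted p of 0.05 over 6 libraries, and without Control 3, 11 of the 116 rose and 5 fell, where 4.28% and 6.62% of all tested genes did. Of the 28 other hydrolase genes tested, 26 were higher in MT, against 56% of all tested genes, with a median of 0.15. Without Control 3, 5 of them rose and 1 fell, and 23 were higher, against 5406 of all 10950 tested genes. The cathepsin gene CTSF was at 12.7 to 15.8 FPKM in Control and at least 17.2 in every MT library, and rose by 0.42 without Control 3 (adjusted p 0.038). GLB1, the lysosomal beta-galactosidase, stood at 58.5, 59.0 and 54.4 in the Control libraries and 66.0, 67.3 and 69.7 in those of MT, a difference of 0.24 that did not pass. CTSC, a dipeptidyl peptidase, fell by 0.39 without Control 3 (adjusted p 0.047). Hydrolase genes that also rose there, named after their values were seen, included PLBD2 (0.51), IDUA (0.67) and GUSB (0.42).

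Genes that deliver hydrolases to lysosomes had a median of 0.15 over 7 tested genes, with 6 higher, against 56% of all tested genes. SORT1, the sorting receptor sortilin, stood at 33.9, 32.8 and 27.8 FPKM in the Control libraries and 41.0, 43.1 and 42.6 in those of MT, a difference of 0.42 (SE 0.11, adjusted p 0.74), and rose by 0.33 without Control 3 (adjusted p 0.033). GNPTAB, which makes the mannose 6-phosphate tag of hydrolases, was at 7.15 to 10.1 FPKM in Control and 10.1 to 12.6 in MT, where the nearest values were almost equal, and did not pass. Among the 14 other membrane, sphingolipid and sterol genes, NPC1, which exports cholesterol from lysosomes, was at 9.07, 8.42 and 8.98 FPKM in the Control libraries and 5.82, 6.26 and 6.40 in those of MT. It was lower in MT by 0.46 on the log2 scale (log2 difference -0.46, SE 0.10, adjusted p 0.48), and fell by 0.44 without Control 3 (adjusted p 0.032). PSAP, the precursor of sphingolipid activator proteins, was at 123.7, 120.0 and 165.3 FPKM in the Control libraries and 154.9, 147.0 and 148.3 in those of MT, and rose by 0.30 only without Control 3 (adjusted p 0.037). The median of this list was 0.04.

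Subunits of the proton pump that acidifies lysosomes had a median of 0.08 over 12 tested genes, with 9 higher, against 56% of all tested genes. Without Control 3 the split was 6 higher and 6 lower, where 5406 of all 10950 tested genes were higher. ATP6V1F, named after its values were seen, rose by 0.36 there (adjusted p 0.040). ATP6V1B2 illustrates how small a separation can be, at 44.2, 44.0 and 44.2 FPKM in the Control libraries and 43.2, 43.6 and 42.9 in those of MT. The 24 other autophagosome genes had a median of 0.05. ULK2, a kinase related to ULK1, stood at 9.89, 9.07 and 10.9 FPKM in the Control libraries and 13.1, 12.5 and 14.3 in those of MT. It did not pass over 6 libraries (0.38, adjusted p 0.82) and rose by 0.45 without Control 3 (adjusted p 0.033). STX17, which acts in fusion of autophagosomes with lysosomes, fell by 0.48 without Control 3 (adjusted p 0.037) and had a difference of -0.21 with it. Other cargo receptor genes had a median of 0.15 that became -0.04 without Control 3. FUNDC1, a receptor on mitochondria, fell by 0.39 there (adjusted p 0.047), and TOLLIP, a receptor for ubiquitinated proteins named after its values were seen, rose by 0.46 (adjusted p 0.039).

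Genes of nutrient sensing and TFEB control had a median of 0.06 over 22 tested genes. SESN2, a stress-induced inhibitor of mTORC1 signalling, stood at 5.90, 5.99 and 7.40 FPKM in the Control libraries and 9.48, 9.79 and 8.54 in those of MT, without overlap. Its difference was 0.47 (SE 0.13, adjusted p 0.74), and it rose by 0.56 without Control 3 (adjusted p 0.024). PRKAA1, a catalytic subunit of the energy sensor AMPK named after its values were seen, fell by 0.47 without Control 3 (adjusted p 0.044) and had a difference of -0.06 with it. RRAGA, a GTPase that brings mTORC1 to lysosomes, was at 53.9 to 62.5 FPKM in Control and 61.9 to 65.1 in MT and passed in neither fit. Among the 116 genes of these lists the MT values lay above all Control values in 13 and below in 2, against the same 6.24% and 4.99% of all tested genes.

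**Figure D5:**
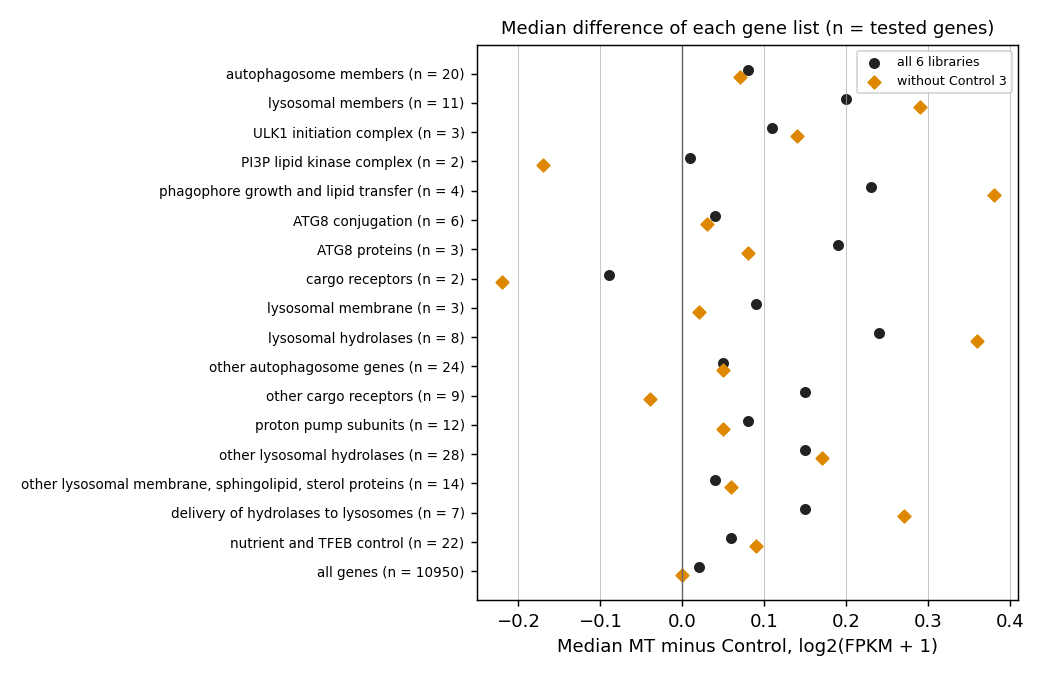
Median difference MT minus Control on the log2(FPKM + 1) scale (x axis) for each gene list with at least 2 tested genes and for all tested genes, over all 6 libraries (black circles) and without Control 3 (orange diamonds). Hydrolase members lie at 0.24 and 0.36, phagophore genes at 0.23 and 0.38, and cargo receptors on the left at -0.09 and -0.22.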

How the data were processed

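The authors deposited FPKM per gene with a column for each of the 6 libraries, and groups were taken from the sample titles. According to the submitters' processing notes, HISAT2, featureCounts of Subread and bcl2fastq were used with the build Sscrofa11.1. Versions, annotation release, strand setting and treatment of shared reads were not given in the sources used here. Because FPKM is tied to each library's total, abundant transcripts move all other values.

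Symbols were matched by Ensembl identifier (13173 of 20731 rows), and positions by symbol from RefSeq of Sscrofa11.1. Library totals and reads were recovered from the steps of low values; all 10950 tested genes came out within 0.01 of whole reads. Genes averaging 1 FPKM or more were tested with limma 3.58.1 (R 4.3.3) on log2(FPKM + 1), which understates changes of low genes, with a variance trend, group as the only term, two-sided, and Benjamini-Hochberg adjustment over all 10950 genes at 0.05. In simulated data the test over 6 libraries recovered 54% of 2-fold increases and 81% of 4-fold decreases, and 9.4% of its calls were false. With the 5 libraries without Control 3 it recovered 77% and 95%, and 5% of its calls were false. Noise was drawn for each gene separately, from that gene's own spread in the libraries of the fit. In the data many genes moved together in Control 3, and the spread without it is the narrower one described above. These shares therefore do not calibrate the calls made here. Changes under 2-fold were not simulated, so a member that did not pass may still have changed. Python 3.11.15 was used for tables and plots.

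The members and lists were chosen with earlier results of these data known. All 33 members are named. For each further list the rule was up to 2 genes in each direction with the smallest p, with NPC1 and PSAP. Some genes that this rule picks are not named, among them ATP6V0A1, ATP6V0A2, UVRAG, TECPR1 and CLN3. Genes marked as named after their values were seen lie outside the rule. Within a group, pairs of libraries had a chi-square of 6.38 to 150 per degree of freedom and none was taken as a copy. The alternatives comprised pseudocounts, filters, scalings, variance models, array weights, a replicate block, voom, and leaving out each library; voom and quantile normalization without Control 3 were added after seeing the data.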

Additional observations from a re-analysis of the deposited data

How the results depend on the processing

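No gene passed under the pseudocounts of 0.1 and 0.5, both filters, 3 scalings, 2 variance models, the replicate block or voom with all 6 libraries. Replicate numbers are shared by the groups, but the deviations of same-numbered libraries correlated at -0.44, 0.63 and 0.34. Same-numbered libraries were therefore not taken as pairs. With the replicate block 0 genes passed. The medians were again 0.08 and 0.20, which was fixed in advance because each group holds every replicate number. Array weights, which gave Control 3 a weight of 0.0523, passed 6309 of the 10950 genes tested and 19 of the 32 members. The lysosomal median was then 0.33. Control 2 and MT 1 had the largest weights, 4.76 and 4.96, while Control 1, MT 2 and MT 3 had 1.3, 0.514 and 1.22. The weighted fit thus leaned mostly on 1 library of each group. Leaving out a library passed 0 to 1194 of the 10950 genes and 0 to 5 of the 32 members. Only leaving out Control 3 passed any, and 4.28% of all tested genes then rose and 6.62% fell. With each library left out in turn, autophagosome medians were 0.07 to 0.14 (0.14 without Control 1) and lysosomal medians 0.11 to 0.29. Without Control 3, voom passed 2367 genes (21.6%, 13 members) and quantile normalization 1333 (12.2%, 7 members); both were added after seeing the data. The cause was not tested.

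The differences that changed sign were all of members that had not passed over 6 libraries, which could not be otherwise, since no member passed there. With array weights they were -0.08 for RB1CC1, -0.16 for PIK3C3, -0.03 for ATG3, 0.05 for ATG4B, -0.30 for ATG5, -0.35 for ATG12, 0.09 for SQSTM1, -0.26 for LAMP2, 0.04 for MCOLN1 and -0.19 for LIPA, and ATG5, ATG12, LAMP2 and LIPA passed with that sign. With voom and quantile normalization without Control 3 they were -0.09 and -0.04 for RB1CC1, -0.22 and -0.12 for PIK3C3, 0.14 and 0.16 for ATG4B, -0.26 and -0.14 for ATG5, -0.34 and -0.27 for ATG12, 0.04 and 0.01 for SQSTM1, -0.22 and -0.17 for LAMP2, 0.03 and 0.03 for MCOLN1, and -0.19 and -0.12 for LIPA; of these ATG12 passed with voom. Quantile normalization also gave 0.02 for ATG7, and equal medians -0.01 for ATG3. With a library left out the ranges were -0.08 to 0.22 for RB1CC1, -0.17 to 0.06 for BECN1, -0.17 to 0.23 for PIK3C3, -0.08 to 0.07 for ATG3, -0.14 to 0.12 for ATG4B, -0.19 to 0.24 for ATG5, -0.31 to 0.27 for ATG12, -0.11 to 0.04 for SQSTM1, -0.48 to 0.05 for OPTN, -0.09 to 0.14 for TFEB, 0.00 to 0.29 for LAMP1, -0.20 to 0.41 for LAMP2, -0.20 to 0.02 for MCOLN1, -0.22 to 0.02 for GLA and -0.17 to 0.22 for LIPA.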

Other observations

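Ratios of related members within a library were looked at after their values had been seen, and are given without a test. LAMP1 to LAMP2, the 2 main glycoproteins of the lysosomal membrane, had an FPKM ratio of 7.94 in Control 1, 8.28 in Control 2 and 31.5 in Control 3. The MT libraries had 13.2, 9.67 and 12.1, between those of the Control libraries. CTSD to CTSL, an aspartic against a cysteine protease, had a ratio of 17.8, 17.6 and 31.1 in Control and 32.0, 26.8 and 28.7 in MT. Control 3 lay inside the MT range for this ratio. GABARAPL1 to MAP1LC3B, both ATG8 genes, had 2.89, 2.87 and 3.75 in Control and 3.47, 3.05 and 4.06 in MT.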
